A study of Homo sapiens with 12 samples.

Results

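The EBF factors and their zinc finger partners are 6 genes, EBF1, EBF2, EBF3, EBF4, ZNF521 and ZNF423, out of 19775 genes read on the arrays. Their members were every probe set, a group of short probes that reports 1 transcript region, whose platform annotation gives 1 of these symbols alone. That rule found 14 of 54613 probe sets: 4 for EBF1, 3 each for EBF2 and EBF3, 2 for ZNF521 and 1 each for EBF4 and ZNF423. The genes were chosen by a measured value, the difference of EBF3 between mithramycin and control in each line, with the disagreement of its sets known. Values in the treatment comparisons, and in the difference of the effects between the lines, are therefore given for all 6 genes as a description, without a p-value. The cells were from TC32 and TC71, both long-established lines grown from human Ewing sarcoma, a tumour whose EWSR1-FLI1 fusion protein acts as a transcription factor. Each line was given control solvent or mithramycin at 100 nM, and RNA was taken after 6 h. Mithramycin is an antibiotic that binds GC-rich DNA. The 4 groups had 3 cultures each, described as biological replicates, with 1 one-colour array per culture, and each line is a single line rather than a sample of tumours.

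EBF proteins (early B-cell factors, also called COE factors) bind DNA as dimers through a zinc-containing domain and carry a helix-loop-helix region. EBF1 commits progenitors to the B-cell lineage, EBF2 acts in fat cell precursors and brown fat, and EBF3 acts in neural development and has been studied as a candidate tumour suppressor. EBF4 is the least studied of the family. ZNF423 and ZNF521 are closely related proteins with many zinc fingers that bind EBF1 and inhibit it. ZNF423 also joins SMAD proteins in BMP signalling and retinoid receptors, and ZNF521 recruits the NuRD corepressor complex and restrains RUNX2.

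Because the drug binds GC-rich DNA, the upstream sequences of the genes were read from RefSeq on GRCh38.p14, as 250 bases before an annotated transcript start. Windows are described for 4 of the 6 genes: EBF1, EBF3, EBF4 and ZNF423. Member windows on a single chromosome were skipped in the reading, while the shares over all windows kept that chromosome. A member without a window here may therefore still have one in the source. Below, capitals mark the GC box letters GGGCGG on either strand, and overlapping matches run together. EBF3 and EBF1 are shown because they had the lowest treatment differences of the EBF genes, and EBF4 because it has most GC boxes of the 4 genes.
EBF3, chr10:129964275-129964524, minus strand: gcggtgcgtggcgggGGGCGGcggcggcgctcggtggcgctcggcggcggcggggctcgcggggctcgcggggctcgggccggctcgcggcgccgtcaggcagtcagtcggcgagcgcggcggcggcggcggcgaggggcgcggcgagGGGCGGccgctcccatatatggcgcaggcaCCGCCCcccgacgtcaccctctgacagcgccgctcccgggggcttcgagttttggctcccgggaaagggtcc
EBF1, chr5:159097957-159098206, minus strand: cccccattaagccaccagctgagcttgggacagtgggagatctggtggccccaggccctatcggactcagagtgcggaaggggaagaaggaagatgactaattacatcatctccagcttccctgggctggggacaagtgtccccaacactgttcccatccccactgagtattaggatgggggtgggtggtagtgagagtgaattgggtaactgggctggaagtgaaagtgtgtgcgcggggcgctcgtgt
EBF4, chr20:2692530-2692779, plus strand: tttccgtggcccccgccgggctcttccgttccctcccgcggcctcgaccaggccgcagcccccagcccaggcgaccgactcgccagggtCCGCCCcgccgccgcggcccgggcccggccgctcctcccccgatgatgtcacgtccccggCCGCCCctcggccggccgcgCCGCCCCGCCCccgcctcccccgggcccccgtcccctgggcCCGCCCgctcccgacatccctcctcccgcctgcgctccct
The EBF3 window held 3 GC boxes and was 81.2% G or C, above 97.7% of the 35116 windows in the table. The EBF1 window held 0 GC boxes and was 57.2% G or C, near the median window of 58.0%. The EBF4 window held 5 GC boxes and was 82.8% G or C. The 2 annotated starts of ZNF423, upstream of which lie chr16:49664325-49664574 and chr16:49857920-49858169 on the minus strand, had 0 GC boxes and 66.0% and 70.0% G or C. At least 1 GC box was present in 42.6% of all windows, at least 3 in 13.9% and at least 5 in 4.15%. GGAAGGAA, a pair of the GGAA units bound by ETS factors such as FLI1, was found on neither strand of these 5 windows and in 3.06% of all windows. The letters CCCNNGGG, read on both strands, occurred once in the EBF3 window, at 2 places each in the EBF4 window and the first ZNF423 window, and in 17.1% of all windows. These matches are letters only, and binding was not measured.

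Values are log2 RMA values as deposited, on which a difference of 1 is a 2-fold difference. Differences carry the standard error of a linear model over all 12 arrays (limma). Its two-sided p-values were adjusted over all 54613 probe sets by the Benjamini-Hochberg method. The comparison of the untreated lines and the treatment comparisons share their control arrays. A set was called at an adjusted p under 0.05. Array medians lay between 4.38 and 4.47, and the size of any difference that reaches below them is rough. RMA makes the arrays alike in their distribution, so each value is relative to the other probe sets. In bulk RNA, fewer cells of a type and less RNA per cell cannot be told apart.

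The correlation between arrays was at least 0.99477 within a group and at most 0.98668 between groups. All 7 measured Ewing sarcoma markers of 8 listed lay above the array median in every group, with summed values of 68.7 to 69.0 in TC32 controls, 66.9 to 67.5 in TC32 with mithramycin, 65.4 to 65.7 in TC71 controls and 63.7 to 64.1 in TC71 with mithramycin. The pan-leukocyte gene PTPRC had group means from 2.34 to 2.52, and 1 of 5 measured blood markers lay above the median. Of the 6 fibroblast markers, 2 lay above the array median in both TC32 groups, 3 in TC71 controls and 4 in TC71 with mithramycin, with sums of 28.8 to 29.6, 29.6 to 29.7, 34.0 to 34.4 and 36.2 to 36.6 in that order of groups. Their part in the differences between the lines was not tested. The gap between the 3' and 5' control sets of beta-actin, which widens as RNA degrades, was 0.71 ± 0.04 and 0.60 ± 0.08 in TC32 and 1.45 ± 0.48 and 0.88 ± 0.10 in TC71, control then mithramycin (SD, n = 3), with TC71 control 1 at 2.0. Of all probe sets, 36.3% were called in TC32 with mithramycin, 28.2% in TC71, 42.6% between the untreated lines and 6.86% for the difference of both effects. The share of higher sets among these calls depends on centring: it was 53.6%, 51.5%, 48.6% and 63.8% in that order, against 34.7%, 28.4%, 76.2% and 59.8% with arrays centred on housekeeping genes and 20%, 64.7%, 57.5% and 93.3% with hybridization controls.

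EBF3 at its brightest set was far lower with mithramycin in both lines. Set 227243_s_at read 7.62, 7.56 and 7.71 on the TC32 control arrays and 4.64, 4.70 and 4.62 with mithramycin. In TC71 it read 7.04, 7.01 and 7.01 in controls and 4.38, 4.09 and 4.27 with mithramycin. The treated arrays lay clear of the controls in each line and close to the array medians, and with mithramycin the TC71 arrays lay below the TC32 arrays. The log2 difference was -2.98 ± 0.08 in TC32, 7.87-fold lower, and -2.77 ± 0.08 in TC71, 6.82-fold lower. Counted from the lowest difference, these were rank 14 and rank 19 of 54613 probe sets.

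The second EBF3 set, 227242_s_at, gave the same order of groups with larger differences. Its TC32 control arrays read 7.25, 7.09 and 7.21 against 3.78, 4.07 and 3.54 with mithramycin, a difference of -3.38 ± 0.14 or 10.4-fold lower (rank 3). In TC71 the controls read 6.07, 6.64 and 6.40 against 3.11, 3.13 and 3.10, a difference of -3.25 ± 0.14 or 9.53-fold lower (rank 5). All 6 treated arrays lay below the array medians, so these folds are rough. The suffix _s_at marks a set whose probes match several transcripts, and which transcripts these are is not given in the sources used here.

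The third EBF3 set, 1559796_at, did not share that pattern. It read 5.93, 6.06 and 5.79 in TC32 controls and 5.59, 5.62 and 5.50 with mithramycin, a small difference of -0.36 ± 0.10. In TC71 it went the other way, from 5.36, 5.28 and 4.98 in controls to 5.60, 5.64 and 5.56 with mithramycin, a difference of 0.39 ± 0.10. The groups did not overlap in either line. With mithramycin the lines read nearly alike on this set, at means of 5.57 and 5.60, while the controls differed. The TC71 difference was smaller, at 0.29, with arrays centred on housekeeping genes. The TC32 difference was smaller in size, at -0.29, without TC32 control 2. Which part of the gene or which transcript this set reads is not given in the sources used here.

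Untreated TC71 cells had less EBF3 signal than untreated TC32 cells on all 3 sets. The difference, TC71 control minus TC32 control, was -0.61 ± 0.08 for 227243_s_at (adjusted p = 1.56e-05), -0.81 ± 0.14 for 227242_s_at (adjusted p = 0.00029) and -0.72 ± 0.10 for 1559796_at (adjusted p = 3.42e-05). With that beta-actin gap as a covariate the value for 227242_s_at was -0.44 and its call was lost (adjusted p = 0.113). The TC71 effect minus the TC32 effect was 0.21 ± 0.11 for 227243_s_at, 0.13 ± 0.20 for 227242_s_at and 0.75 ± 0.14 for 1559796_at. These differences rest on the values that chose the genes and are given as a description.

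**Figure D1:**
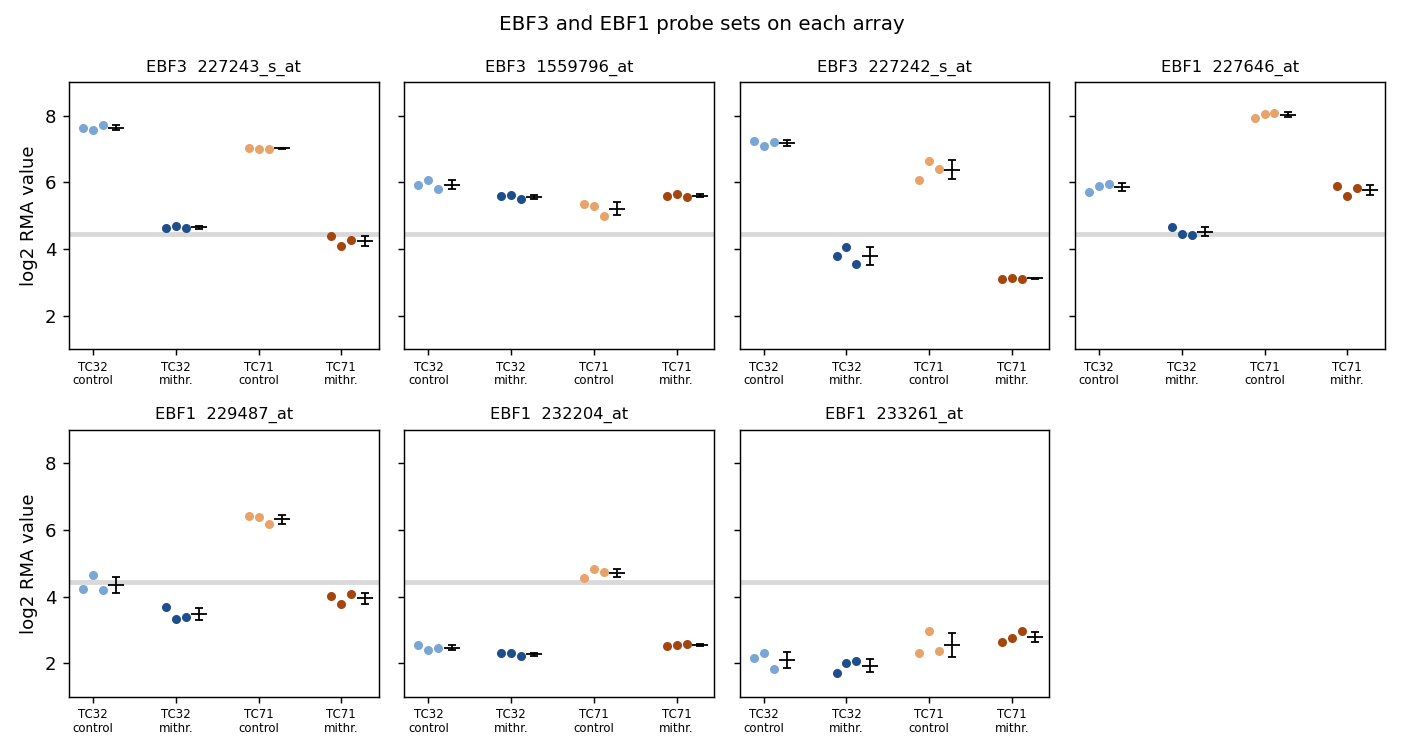
Log2 RMA values of the 3 EBF3 and 4 EBF1 probe sets on each of the 12 arrays (dots, by group), with the mean ± SD of 3 arrays as bars and the range of the array medians as a grey band. EBF3 227243_s_at drops from 7.56 to 7.71 in TC32 controls to between 4.62 and 4.70, while 1559796_at stays between 4.98 and 6.06 throughout.

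EBF1 was higher in untreated TC71 than in untreated TC32. Its brightest set, 227646_at, read 5.72, 5.89 and 5.94 in TC32 controls and 7.94, 8.05 and 8.08 in TC71 controls, a difference of 2.17 ± 0.10 or 4.51-fold (adjusted p = 6.78e-10). With mithramycin it read 4.67, 4.46 and 4.41 in TC32 and 5.88, 5.58 and 5.84 in TC71. Treated TC71 cells thus overlapped with untreated TC32 cells, and the other groups were separate. The treatment difference was -1.33 ± 0.10 in TC32, 2.52-fold lower (rank 799), and -2.25 ± 0.10 in TC71, 4.77-fold lower (rank 71). The TC71 effect minus the TC32 effect was -0.92 ± 0.14, and it ranged from -1.0 to -0.68 over the alternatives. The treated TC32 arrays lay close to the array medians, so the size of this gap is rough.

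The dimmer EBF1 sets 229487_at and 232204_at were also highest in TC71 controls. Set 229487_at read 4.24, 4.64 and 4.20 in TC32 controls, 3.68, 3.34 and 3.39 with mithramycin, 6.41, 6.38 and 6.17 in TC71 controls and 4.03, 3.77 and 4.07 with mithramycin. Its treatment differences were -0.89 ± 0.13 and -2.36 ± 0.13, and the effects differed by -1.47 ± 0.19. Its treated arrays lay below the array medians in both lines and its TC32 controls near them, so these sizes are rough. Set 232204_at read 2.55, 2.39 and 2.46, then 2.30, 2.30 and 2.21 in TC32, and 4.57, 4.82 and 4.73, then 2.53, 2.54 and 2.57 in TC71. On this set only the TC71 controls reached the array medians. Its TC32 difference of -0.20 ± 0.07 and the gap between its effects of -1.96 ± 0.10 are therefore rough. The untreated lines differed by 1.96 ± 0.13 (adjusted p = 3.75e-08) and 2.24 ± 0.07 (adjusted p = 3.09e-11).

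The fourth EBF1 set, 233261_at, lay below the array medians on every array, between 1.71 and 2.97, and its treated and control arrays overlapped in both lines. Its differences were -0.18 ± 0.17 in TC32 and 0.25 ± 0.17 in TC71. Between the untreated lines it differed by 0.44 ± 0.17, which was not called (adjusted p = 0.0604). It was called in 7 alternatives, with the replicate number as a block among them (0.44, adjusted p = 0.0422).

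ZNF521, an inhibitor of EBF1, was well above the array medians in untreated TC32 and below them on every TC71 array. Set 226676_at read 7.37, 7.20 and 7.02 in TC32 controls against 2.72, 2.21 and 2.55 in TC71 controls, 26-fold lower in TC71 at a difference of -4.70 ± 0.16 (adjusted p = 4.73e-11). Set 226677_at read 6.80, 6.86 and 6.64 against 1.72, 1.93 and 1.59, 32.5-fold lower at -5.02 ± 0.09 (adjusted p = 1.55e-13). Both sets placed TC71 far below the array medians, so the folds are rough, and the direction was the same on each.

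With mithramycin ZNF521 was lower in TC32. Set 226676_at read 4.79, 5.48 and 5.09 there, a difference of -2.08 ± 0.16 or 4.21-fold lower (rank 131), and set 226677_at read 4.55, 4.58 and 4.44, a difference of -2.24 ± 0.09 or 4.73-fold lower (rank 73). In TC71 the treated arrays read 2.76, 2.68 and 2.58, and 2.03, 1.97 and 1.88, overlapping the controls on each set, with differences of 0.18 ± 0.16 and 0.22 ± 0.09. The effects in the lines were 2.26 ± 0.23 and 2.46 ± 0.13 apart. Since all TC71 arrays lay below the array medians, a fall there could have been missed, and the difference of the effects does not show that ZNF521 responds otherwise there.

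ZNF423, the SMAD and retinoid receptor partner, was higher in TC32 and lower with mithramycin in both lines. Its 1 set, 214761_at, read 6.84, 7.10 and 6.85 in TC32 controls and 5.89, 6.13 and 6.17 with mithramycin. In TC71 it read 5.51, 5.56 and 5.58 in controls and 4.24, 4.49 and 4.36 with mithramycin. The 4 groups did not overlap, in the order TC32 control, TC32 with mithramycin, TC71 control and TC71 with mithramycin. The treatment differences were -0.87 ± 0.10, 1.82-fold lower (rank 2303), and -1.19 ± 0.10, 2.28-fold lower (rank 774). The untreated lines differed by -1.38 ± 0.10, 2.6-fold (adjusted p = 5.82e-08). The TC71 effect minus the TC32 effect was -0.32 ± 0.14.

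**Figure D2:**
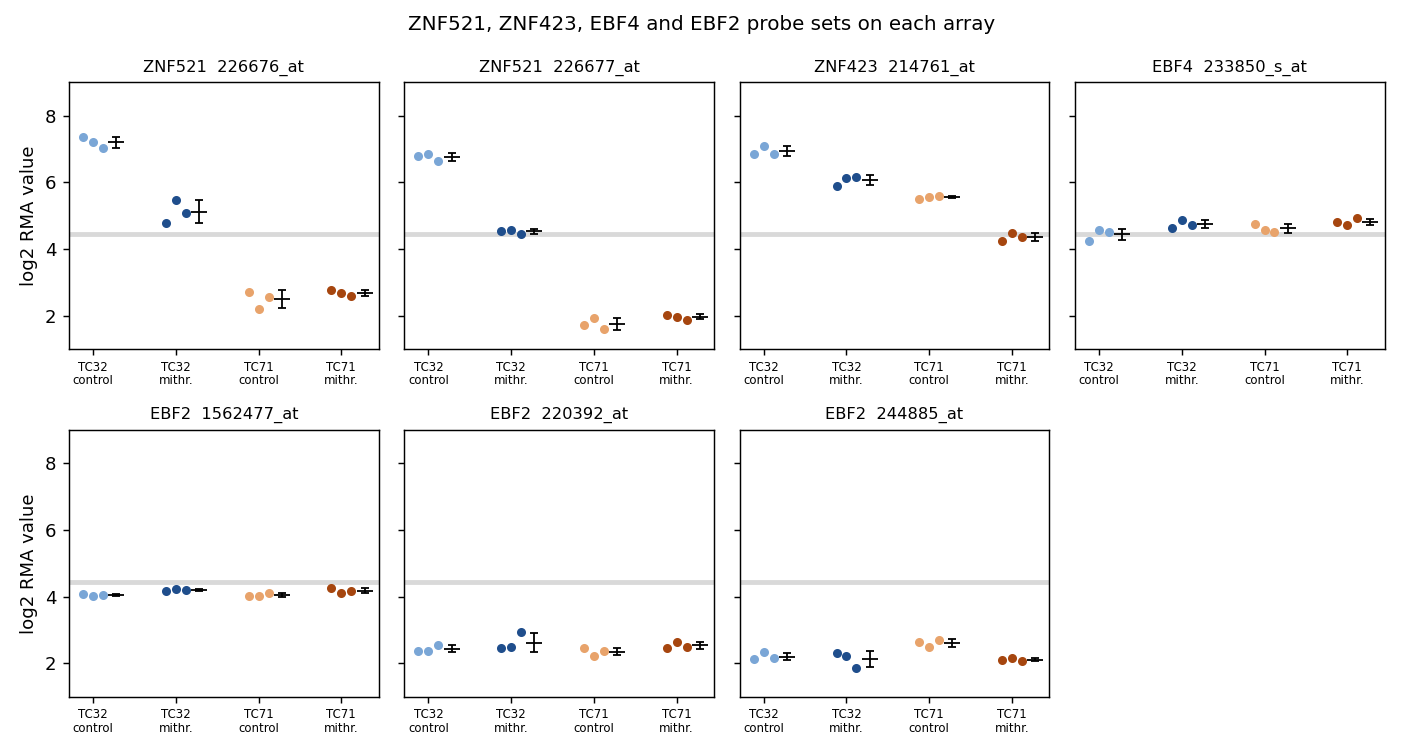
Log2 RMA values of the ZNF521, ZNF423, EBF4 and EBF2 probe sets on each array (dots, by group), with the mean ± SD of 3 arrays as bars and the range of the array medians as a grey band. Both ZNF521 sets are high in TC32 controls and below the band in TC71, and the EBF2 sets stay below the band on every array.

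EBF4 lay near the array medians in every group. Its set, 233850_s_at, read 4.24, 4.56 and 4.51 in TC32 controls and 4.62, 4.87 and 4.73 with mithramycin, and 4.76, 4.58 and 4.51 in TC71 controls and 4.80, 4.73 and 4.92 with mithramycin. The groups were separate in TC32 and overlapped in TC71, with differences of 0.31 ± 0.10 and 0.20 ± 0.10. Its TC32 call, given only as a description, was lost in 7 alternatives, at values between 0.15 and 0.31. The set was the only member set called higher in that comparison. The untreated lines differed by 0.19 ± 0.10 (adjusted p = 0.168), or by 0.40 with housekeeping centring (adjusted p = 0.00643).

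EBF2 was low throughout. Set 1562477_at lay between 4.01 and 4.27 on the 12 arrays, with differences of 0.15 ± 0.06 in TC32 and 0.14 ± 0.06 in TC71. Set 220392_at lay between 2.23 and 2.94, with 0.18 in each line, and its treated and control arrays overlapped in TC32 and were 0.01 apart in TC71. Set 244885_at read 2.64, 2.48 and 2.71 in TC71 controls and 2.11, 2.16 and 2.07 with mithramycin, a difference of -0.49 ± 0.11, against -0.06 in TC32. All values of the 3 sets lay below the array medians, so the data hold no measured level of EBF2 above dim signal. Between the untreated lines 244885_at differed by 0.40 ± 0.11 (adjusted p = 0.00774, lost with the beta-actin covariate at adjusted p = 0.156), and the other sets were not called (adjusted p = 0.945 and 0.63). Set 1562477_at was called in the opposite direction with housekeeping centring, at 0.21 against -0.01.

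Over the 14 member sets, 8 were called lower and 1 higher in TC32 with mithramycin, beside 16.9% lower and 19.4% higher among all sets. In TC71, 7 were called lower and 1 higher, beside 13.7% and 14.5%. These counts describe sets chosen with the treatment results known, and nothing is read from them. At least 2-fold lower were 5 sets in TC32 and 6 in TC71, beside 3.1% and 2.15% of all sets. In TC32 they were EBF3 227243_s_at and 227242_s_at, EBF1 227646_at and both ZNF521 sets, and in TC71 they were the same EBF3 sets, 3 EBF1 sets and the ZNF423 set. Between the untreated lines 10 of 14 sets were called, 6 lower and 4 higher in TC71, beside 42.6% of all sets (21.9% lower and 20.7% higher). For the difference of the effects, 6 of 14 were called, 3 in each direction, beside 6.86% of all sets. This count too describes sets chosen with the treatment results known, and nothing is read from it. Those 6 sets read only 3 genes, and the sets of a gene share its transcripts. Among them is EBF3 1559796_at, whose disagreement with the other EBF3 sets was known beforehand. Treated and control arrays were separate on 11 sets in TC32 and 9 in TC71, beside 44.7% and 45.1% of all sets, and the control arrays of the lines on 10, beside 51.8%.

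**Figure D3:**
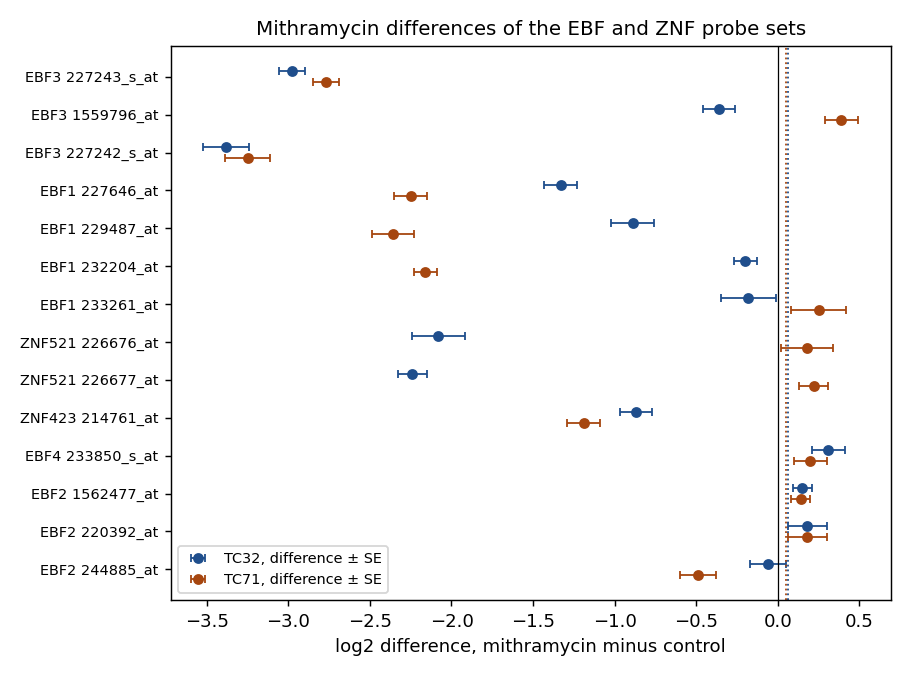
Mithramycin minus control differences of the 14 member probe sets in TC32 and TC71, as points with the model's standard error, and dotted lines at the median of all probe sets in each line (log2 scale). The EBF3 sets 227243_s_at and 227242_s_at lie at -2.77 or lower in both lines, ZNF521 lies at -2.08 and -2.24 in TC32 alone, and EBF2 and EBF4 lie within 0.5 of 0.

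Genes linked to the members by their known roles were then described from lists drawn from textbook knowledge, at the brightest set of each gene. The lists were chosen with earlier results of these data known. Over all genes, 18.5% were called lower and 23.1% higher in TC32 and 15.3% lower and 17% higher in TC71, with median differences of 0.08 and 0.07.

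Targets and cofactors of EBF1 in the B lineage did not move together. Of 12 measured of 14 genes, 3 were called lower and 3 higher in TC32 (median 0.06) and 2 lower and 1 higher in TC71 (median 0.03). The 3 higher calls in TC32 were lost with either centring. FOXO1, a forkhead factor that works with EBF1, fell from 5.78 ± 0.05 to 4.45 ± 0.15 in TC32 (SD, n = 3), a difference of -1.33 ± 0.08, and by -0.92 ± 0.08 in TC71, while its 3 sets reached 0.19 and 0.10. TCF3, which encodes the E2A proteins that help induce EBF1, changed by -0.57 ± 0.07 (adjusted p = 4.87e-05) and -0.49 ± 0.07 (adjusted p = 0.000258), and its 14 sets ranged from -0.57 to 0.20 in TC32. PAX5, a B-lineage factor that EBF1 activates, changed by -0.56 ± 0.14 in TC32 (adjusted p = 0.00787), was at -0.10 in TC71, and differed between the untreated lines by -3.45 (adjusted p = 2.74e-10). All its TC71 arrays lay below the array medians, so its TC71 value and the size of its line difference are rough. Its effects were 0.46 apart, which was not called (adjusted p = 0.233). The other PAX5 set read 0.13 in TC32.

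In the fat cell programme, where EBF2 and ZNF423 act, 10 of 10 genes were measured, and 1 was called lower and 2 higher in each line (medians 0.09 and 0.07). With hybridization controls both higher calls in TC32 were lost. CEBPB changed by -1.01 ± 0.06 in TC32 and -0.34 ± 0.06 in TC71, although the TC71 call was lost with hybridization controls. CEBPA was at 0.08 ± 0.08 in TC32 and rose by 0.78 ± 0.08 in TC71 (adjusted p = 1.3e-05), and the effects differed by 0.69 (adjusted p = 0.00299). CEBPD rose by 0.68 ± 0.08 in TC71. Its TC32 call at 0.24 was lost in 9 of 21 alternatives. PPARG, the master regulator of fat cell formation, rose by 0.47 ± 0.11 in TC32 (adjusted p = 0.00538), a call lost with hybridization controls, and was at 0.20 in TC71, all below the array medians.

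Among the BMP, SMAD and ID genes, the signalling arm that ZNF423 joins, 9 of 15 measured genes (of 16) were called lower and 1 higher in TC32, and 8 lower and 2 higher in TC71. Their medians were -0.35 and -0.37. SMAD6, an inhibitor of that pathway, changed by -2.76 ± 0.12 and -2.35 ± 0.12, while its 4 sets reached 0.28 and 0.14. Of these sets 2 were called lower in TC32 and 1 in TC71. ID3, a dominant-negative helix-loop-helix protein, changed by -1.15 ± 0.07 and -0.73 ± 0.07, and the effects differed by 0.42 (adjusted p = 0.0169). BMPR1B, a type I BMP receptor, changed by -1.39 ± 0.16 and -0.70 ± 0.16, the TC71 call being lost with the beta-actin covariate, and its 3 sets reached -0.13 and 0.04. ID1 and ID2, relatives of ID3 named here after their values were seen, differed between the lines. ID2 was called lower in TC32 at -0.28 ± 0.07 and higher in TC71 at 0.43 ± 0.07, an effect difference of 0.70 (adjusted p = 0.000672). ID1 was called higher in TC32 at 0.40 ± 0.06, a call lost with hybridization controls, and was at -0.11 in TC71, an effect difference of -0.51 (adjusted p = 0.00336). Between the untreated lines 10 of these 15 genes were called higher in TC71 and 3 lower, beside 25.8% and 23.5% of all genes.

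Among NuRD subunits, the complex recruited by ZNF521, 6 of 13 were called lower and 0 higher in TC32 and 4 lower and 1 higher in TC71. The medians were -0.16 and -0.08, and the TC71 median was 0.01 with hybridization controls. MTA3 changed by -1.22 ± 0.08 and -0.92 ± 0.08, GATAD2B by -0.88 ± 0.12 and -0.89 ± 0.12, and GATAD2A by -0.72 ± 0.08 and -0.56 ± 0.08. Their sets disagreed in part: the other MTA3 set read 0.34 in TC32 and -0.32 in TC71, and of the 6 GATAD2A sets 3 were called lower in each line and 2 higher in TC32, at up to 0.32. Of the retinoid receptors and PARP1, 3 of 7 were called lower in TC32 and 1 lower and 1 higher in TC71. RXRA, the shared partner of nuclear receptors, changed by -1.34 ± 0.08 and -1.33 ± 0.08, and its other set read -0.15 and -0.24. RARB changed by -0.95 ± 0.12 in TC32 and was at -0.05 in TC71, where its arrays lay below the array medians, and its 5 sets reached 0.26 and 0.38. RARA was at -0.31 and -0.10, and its TC32 call was lost in 5 of 20 alternatives. Its 5 sets ranged from -1.32 to 0.28 in TC32 and from -1.0 to 0.15 in TC71, where 1 of them was called lower.

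Of the bone and cartilage factors, 3 of 7 measured genes (of 8) were called lower and 1 higher in TC32, and 2 lower and 1 higher in TC71. RUNX2, the bone factor that ZNF521 restrains, changed by -1.18 ± 0.10 and -0.91 ± 0.10 at its brightest set, with its 6 sets reaching 0.39 and 0.60. TWIST1, a helix-loop-helix factor of mesenchyme, changed by -1.20 ± 0.07 and -0.73 ± 0.07. SOX9, the cartilage factor, changed by -1.0 ± 0.16 in TC32 and was at 0.17 in TC71, where it lay below the array medians. The list of 5 genes linked to growth arrest by EBF3 held the inhibitors CDKN1A and CDKN1B, and CDK2, CCNB1 and CCNA2, which promote division. CDKN1A, CDKN1B and CDK2, 3 of the 5, were called higher in each line. CCNB1 was called lower in TC32 at -0.31, and the medians were 0.26 and 0.40. The list mixes genes of opposite roles, so its counts and medians do not show a rise of arrest genes. The count of higher genes in TC32 was 1 with hybridization controls. CDKN1A, a cyclin-dependent kinase inhibitor, rose by 0.88 ± 0.07 and 0.48 ± 0.07. CDKN1B, another inhibitor, rose by 0.41 ± 0.09 in TC71, and its TC32 call at 0.26 was lost in 8 of 22 alternatives. CDK2, a kinase they inhibit, rose by 0.38 ± 0.09 and 0.40 ± 0.09, with each line's call lost in 1 alternative.

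**Figure D4:**
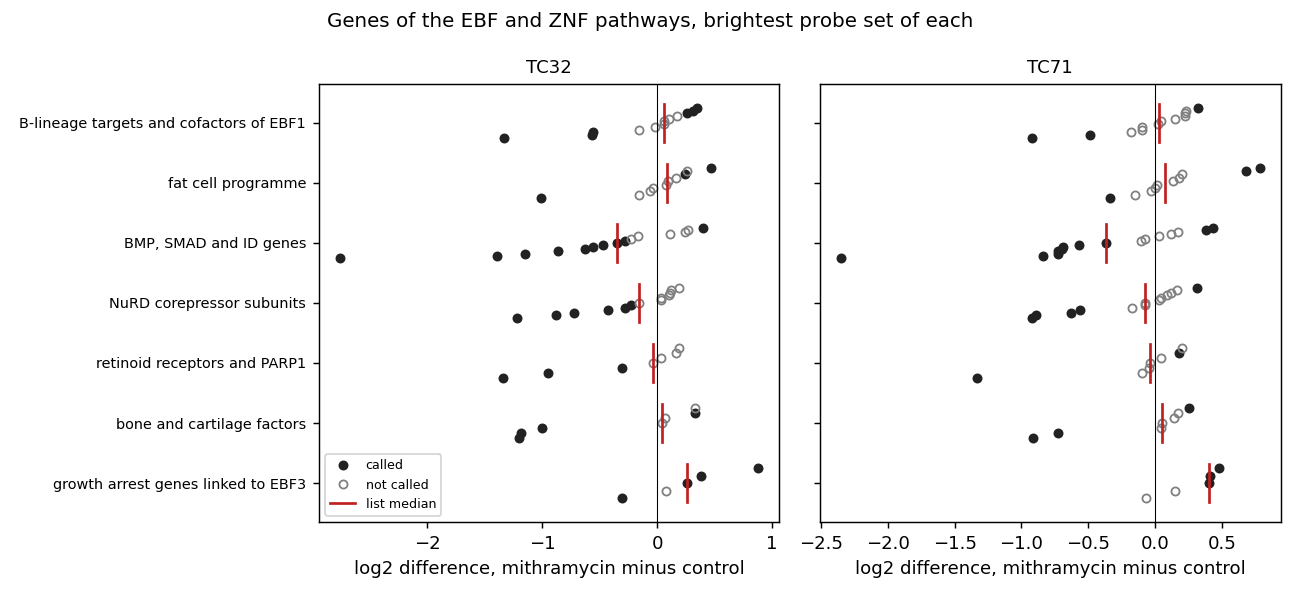
Mithramycin minus control differences (log2 scale) of the genes of the 7 lists at their brightest set, in TC32 and TC71, with filled points for genes called, open points for the others and red marks for the list medians. The BMP, SMAD and ID genes have medians of -0.35 and -0.37, and the B-lineage and fat cell lists have medians between 0.03 and 0.09.

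The genes whose values went most alike with the brightest set of a member across the 12 arrays, by Pearson's r over 19736 other genes, mostly followed the same order of groups, at levels of their own. For EBF3 these were ZSWIM6 (r = 0.998), PLEKHA5 and TMEFF2 (0.997 each), DENND5A and FYN (0.996 each). For EBF1 they were SLC39A11 (0.998), KIF13A (0.992) and ASXL2 (0.991), for ZNF521 they were ZIC2, LMO4 and FGFR2 (0.994 each), and for ZNF423 they were WNK1 (0.994), RBMS1 (0.993) and CDC42BPA (0.992). EBF2 and EBF4 varied by less than 1 between group means and were not matched. These r describe 12 arrays in 4 groups and carry no p.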

How the data were processed

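Each cell of the deposited table is a log2 value of 1 probe set on 1 array, which the authors made with RMA per the submitters' processing notes. Its version and its settings were not given in the sources used here. Batches and detection calls were not used. The table had 0 missing cells. Of 54675 probe sets, 62 were controls, 41091 had 1 symbol, 1801 several and 11721 none, and 41037 matched RefSeq by Entrez identifier. Groups came from the labels. All 12 arrays entered 1 limma 3.58.1 model in R 4.3.3 with a mean per group, tested first on simulated data. Contrasts were mithramycin minus control in each line, TC71 control minus TC32 control, and the difference of the effects. The rule for naming list genes took the 3 of each list with the largest mean absolute effects among those called in at least 1 line. It also took FOXO1, SMAD6, CDKN1A and PPARG. Outside this rule, ID1 and ID2 were named after their values were seen, and CCNB1 and CCNA2 to describe their list. Members and lists were chosen with earlier results of these data known. Alternatives changed the centring, normalization, filter, probe set rule, arrays fitted or covariates. The number of arrays limits the precision.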

Additional observations from a re-analysis of the deposited data

Results flagged for a closer look

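Sets were flagged where limma's test of TC71 effect minus TC32 effect (n = 3 arrays per group) gave an adjusted p under 0.05. They read EBF1, EBF3, ZNF521 and several list genes. For the members this is a description, since they were chosen with treatment results known. Among the members the differences were -0.92, -1.47 and -1.96 for EBF1 sets 227646_at, 229487_at and 232204_at, and 2.26 and 2.46 for ZNF521 sets 226676_at and 226677_at, whose TC71 arrays all lay below the array medians. In treated TC32 the EBF1 sets lay near or below those medians, so the size of their gaps is rough. EBF3 set 1559796_at was lower in TC32 and higher in TC71 with mithramycin, without overlap of the arrays. Its effects were 0.75 apart, a description only, since that disagreement was known when the genes were chosen.

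Among list genes the differences were 0.42 for FOXO1, 0.69 for CEBPA, 0.67 for CEBPB, 0.44 for CEBPD, 0.42 for ID3, 0.70 for ID2, -0.51 for ID1, 0.90 for RARB, 1.18 for SOX9, 0.48 for TWIST1 and -0.40 for CDKN1A. The TC71 arrays of RARB and SOX9 all lay below the array medians, so a fall there could have been missed and the size of their differences is rough.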

How the results depend on the processing

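Of 56 results of member sets, 42 stayed on their side of the threshold, and kept their direction where called, in every alternative run. Over 1122 refits, 1090 were unchanged in that sense, 12 lost a call, 19 gained one and 1 reversed, EBF2 1562477_at between the untreated lines, at 0.21 with housekeeping centring. The counts of calls over all probe sets were 19826 in TC32, 15394 in TC71, 23281 between untreated lines and 3744 for the difference of effects. In that order they were 10642, 9480 and 12118 among sets averaging 6 or more, 8891, 7018, 10185 and 1975 with 1 set per gene, and 13015, 10039 and 14994 without _x_at and _s_at sets. In these 3 alternatives fewer sets were tested. With the beta-actin covariate TC71 had 9477 calls and the difference of effects 2230, and with hybridization controls the difference had 6047. The cause was not tested. Leaving out 1 array gave 16995 to 20263, 12589 to 16416, 21134 to 24033 and 2804 to 3930 calls.

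Same-numbered control and mithramycin arrays correlated at 0.073, 0.211 and 0.027 in TC32, where other pairs ranged from -0.17 to 0.109. In TC71 the same-numbered arrays were at -0.086, -0.018 and -0.034, and other pairs ranged from -0.042 to 0.071. Same-numbered control arrays of the lines were at 0.075, 0.115 and 0.042, each above the other pairs (-0.084 to 0.013). Whether the numbers mark a shared run or culture was not tested. With the replicate number as a block the counts were 19357, 14745, 23153 and 2935, and 1 member set, EBF1 233261_at between the untreated lines, changed its call. No detection calls were used, so the depth of dim sets is not known.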
